A study of Mus musculus with 2 samples.

Results

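The TRIM (tripartite motif) genes encode a large family of mostly ubiquitin ligases, and their RNA was read here in mouse bone marrow-derived dendritic cells on 2 one-colour Agilent arrays. Members were all genes whose official symbol begins with Trim and a number, pseudogenes left out. The RefSeq gene table listed 68 of them, 66 had a probe, and 47 were called well above background by the scanner software on at least 1 array. These 47 stand among 15407 genes measured the same way. Of the 47, 41 passed on both arrays. A further 5 passed only on the array labelled EGR1-deficient, here called the deficient-labelled array, and 1 only on the array labelled wild type (WT).

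Both cultures came from male C57BL/6J mice per the labels, were grown from femoral marrow in GM-CSF at 10 ng/ml, which drives marrow precursors towards dendritic and macrophage-like cells, and were collected on day 6. 1 culture was labelled Egr1-deficient and 1 WT. EGR1 is an immediate early transcription factor. Which allele was used, and whether marrow was pooled over animals, is not stated by the labels or file headers. Each group had 1 array, so no p-value was computed, no difference has a replicate check, and every value is a single reading of 1 culture. In bulk RNA of this kind, fewer cells of a type and less RNA per cell cannot be told apart.

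A TRIM protein typically carries a RING domain, which passes ubiquitin from a conjugating enzyme to a target, then B-box zinc fingers and a coiled coil through which the proteins pair. The C-terminal part differs between subfamilies and picks the target, as in the SPRY domain of many antiviral members, the bromodomain of the chromatin-binding members and the NHL repeats of others. In dendritic cells and macrophages the family is known for tuning the sensing of viral RNA and DNA and the NF-kB pathway, and interferon induces many of its antiviral members.

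Egr1 itself went against the label. It read 1212 on the deficient-labelled array and 379.7 on the WT array, higher by 1.61 log2 units where it is labelled deficient, and the position of its probe relative to the targeted part is not known here. Xist, normally made in female cells, read 4559 and 3425, whereas Ddx3y, Kdm5d and Uty, which lie on the Y chromosome, did not pass the background call on either array. Every direction below therefore rests on labels that Egr1 does not bear out. Of the non-control spots, 59.8% were well above background on the deficient-labelled array and 55.2% on the WT array, and none was saturated. All 10 dendritic cell markers examined were above background on both arrays, with a median difference of 0.04.

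The start sites of part of the family share a sequence. The interferon-stimulated response element, the site bound by the interferon-activated factor ISGF3 and by IRF proteins, was searched as GAAA, any 2 bases and GAAA, on both strands, in RefSeq windows (assembly GRCm38.p6) of 300 bases, which run from 250 bases before an annotated start to 50 after it. A window was found for 53 of the 68 genes, 67 windows in all. The letters occurred in 10 of these 67 windows (14.9%), belonging to 9 genes, against 3.44% of 32851 windows of all genes. Restricted to the 250 bases before the start, they occurred in 5 of 67 windows (7.46%) against 2.98%. The 30 bases around each match are given on the strand of the gene, with the matched letters in capitals, because they show which genes carry the same letters around the match.
Trim5 (chr7:104288136-104288165, minus strand): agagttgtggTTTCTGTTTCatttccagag
Trim12a (chr7:104315466-104315495, minus strand): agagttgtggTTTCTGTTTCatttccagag
Trim12c (chr7:104353359-104353388, minus strand): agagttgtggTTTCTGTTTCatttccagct
Trim30a (chr7:104465210-104465239, minus strand): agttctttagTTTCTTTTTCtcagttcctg
Trim30d (chr7:104507871-104507900, minus strand): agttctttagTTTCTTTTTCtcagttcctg
Trim34a (chr7:104244457-104244486, plus strand): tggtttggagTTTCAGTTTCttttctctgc
Trim21 (chr7:102565447-102565476, minus strand): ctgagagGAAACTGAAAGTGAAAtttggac
Trim26 (chr17:36836979-36837008, plus strand): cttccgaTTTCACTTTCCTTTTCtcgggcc
Trim2 (chr3:84212791-84212820, minus strand): tcagctttggTTTCCTTTTCtctaagacag

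In Trim21 and Trim26 the capitals span 2 overlapping matches. The match began 49 bases before the start in Trim5, 29 before it in Trim12c, 36 in Trim30a, 41 in Trim30d and 160 in Trim26. In Trim12a and Trim34a it began at base 11 after the start, in Trim21 at base 14 and in Trim2 at base 29. A second annotated start of Trim30a carried the same matched letters at base 3. These windows are not independent observations. Trim5 and Trim12a shared a run of 241 identical bases, Trim5 and Trim12c 71, and Trim30a and Trim30d 118, and these genes lie in 1 cluster on chromosome 7. A match is a description of the letters and does not show binding.

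The STAT site, searched as TTCNNNGAA in the 250 bases before the start, occurred in 6 of 67 windows (8.96%) against 7.02% of all windows, in Trim15, Trim30c, Trim31, Trim45 and Trim46. The 2 windows of Trim15 overlap and hold the same site, which was thus counted in both. The EGR site, searched as GCGTGGGCG on both strands, occurred in 2 of 67 windows (2.99%), 1 each of Trim13 and Trim47, against 0.536% of all windows. In Trim13 the letters begin 79 bases before an annotated start, on the gene's own strand, in a stretch that lies downstream of another annotated start and is not printed. In Trim47 they begin 227 bases before the start. The window of Trim47 is shown because the labels concern an EGR factor. Capitals mark the match, which reads on the opposite strand.
Trim47 (chr11:116110236-116110485, minus strand): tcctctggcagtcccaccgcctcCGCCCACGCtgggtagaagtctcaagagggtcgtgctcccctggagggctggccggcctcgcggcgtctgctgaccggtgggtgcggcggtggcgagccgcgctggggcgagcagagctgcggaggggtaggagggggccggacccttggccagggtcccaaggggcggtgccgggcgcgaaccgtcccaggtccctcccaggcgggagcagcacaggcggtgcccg

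As a family, the TRIM genes differed little between the arrays. Expression values are log2 processed signal minus each array's own 75th percentile over non-control spots, and a difference is the deficient-labelled array minus WT. The median difference over the 47 genes was −0.03, with 25 below 0, and over all 15407 genes it was also −0.03, with 54.0% below 0. Placing the 6 genes seen on 1 array at their bounds, or at 0 where there was none, left the TRIM median at −0.03. Among the 41 genes above background on both arrays, 38 (92.7%) lay within 1.5-fold, and for all such genes the share was 92.3%.

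The genes 1.5-fold or more apart numbered 4. Trim45 and Trim75 were higher on the deficient-labelled array, 2 of 47 against a background of 5.48% of all genes. Trim6 and Trim17 were lower there, 2 of 47 against 5.84%. At 2-fold or more there were 0 TRIM genes on the higher side, where 1.88% of all genes lay, and 1 on the lower side, Trim17, where 2.18% of all genes lay. With 47 genes, such counts do not set the family apart from the background. Over all genes the split between higher and lower depended on the scaling: 845 higher and 899 lower at 1.5-fold as reported, but 635 and 1078 after loess, 659 and 1050 after quantile normalization, 1063 and 710 with the 75th percentile over spots passing on both arrays, and 649 and 239 in the authors' series table. The technical error available for such differences is the spread between probes of 1 gene: for genes with exactly 2 usable probes the SD between their differences had a median of 0.17 log2 units and a root mean square of 0.31 (3571 genes), with a median of 0.20 for the 14 TRIM genes among them. For probes printed many times the SD over their spots was 0.07, but each TRIM probe was printed on 1 spot only.

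**Figure D1:**
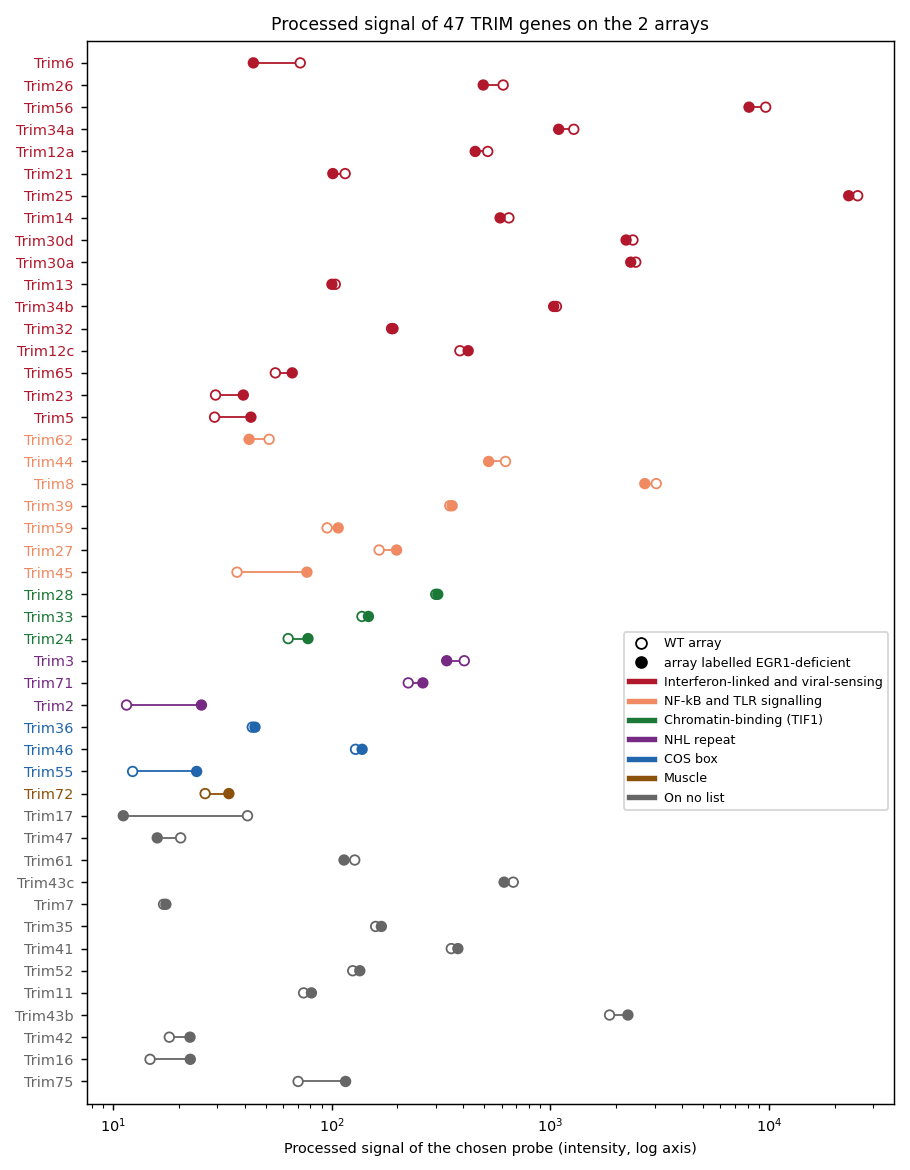
Processed signal of the chosen probe of each of the 47 TRIM genes (x axis, intensity on a log axis) on the WT array (open circles) and the deficient-labelled array (filled circles), with 1 reading per circle and colours for the gene lists. Most pairs nearly touch, while Trim17, Trim45, Trim2 and Trim6 are visibly apart, as are Trim75 (116 and 70.3) and Trim55; signals are not comparable between genes.

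The antiviral members leaned towards lower values on the deficient-labelled array, by small amounts. The list of interferon-linked and viral-sensing TRIM genes held 21 genes, of which 17 were above background, all on both arrays. Their median difference was −0.17, with 13 of 17 (76.5%) below 0. Over all 13725 genes passing on both arrays the median was −0.05 with 57.4% below 0, and in the bands of signal from 200 upwards, where many of these members lie, 62.2% to 69.4% were below 0. The other 30 measured TRIM genes had a median of 0.03, with 12 below 0. Of the 17, 1 was 1.5-fold or more lower, against the 5.84% of all genes, and 0 were higher, against 5.48%.

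Trim6, which makes unanchored ubiquitin chains that activate the kinase IKK-epsilon, read 43.9 on the deficient-labelled array and 71.9 on the WT array. The reading was lower on the deficient-labelled array, by 0.78 log2 units or 1.72-fold, on its only probe. Trim25, the ligase that ubiquitinates the RNA sensor RIG-I, read 23145 and 25439, a difference of −0.20, and another probe read 1171 and 1215, a difference of −0.12. Both probes of Trim25 lay slightly lower on the deficient-labelled array, by less than the root mean square spread between probes of 1 gene. Trim56, known for its part in DNA sensing through cGAS and STING, read 8103 and 9657, a difference of −0.32. Its other probe, above background on the deficient-labelled array only, read 17.5 and 16.8. The gap seen by the bright probe was therefore not checked by a second reading well above background on both arrays.

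Trim26, which promotes degradation of the interferon regulator IRF3, read 494 and 609, a difference of −0.37 on 1 probe. Trim21, the cytosolic antibody receptor, read 101 and 115, a difference of −0.25 on 1 probe. Trim14, an adaptor without a RING domain that binds MAVS, read 589.6 and 647, a difference of −0.20. For Trim14 another probe differed by 0.06, so the sign depended on the probe. Trim13, an ER-anchored ligase, differed by −0.12, and Trim32, an NHL-repeat ligase that acts on STING, by −0.05. Trim23, which carries an ARF GTPase domain, read 39.5 and 29.5, a difference of 0.36. The other probes of Trim32 and Trim23 were not above background on either array. Trim65, the ligase of the RNA sensor MDA5, read 66.1 and 55.3, a difference of 0.19, while its other probe read 42.5 and 48.3, a difference of −0.25. The members of this list on the higher side were thus Trim5, Trim23, Trim65 and Trim12c. No reading above background was obtained for Trim38, a restraint on Toll-like receptor signalling (3.03 and 3.65), Trim31 or Trim30b, and Trim30c had no probe.

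The duplicated cluster around Trim5 makes up part of that list. Along chromosome 7 the RefSeq order is Trim6, Trim34a, Trim5, Trim12a, Trim34b, Trim12c, Trim30b, Trim30c, Trim30a and Trim30d, with a few other transcripts between them. TRIM5 in primates blocks incoming retroviral capsids, and the mouse cluster holds its relatives. Of the 8 cluster genes above background 6 were below 0, with a median difference of −0.16. Trim5 read 42.8 and 29.2, a difference of 0.49, and its other probe 27.6 and 28.3, a difference of −0.10. The neighbouring Trim12a, whose start window shares a shifted run of 241 bases with that of Trim5, read 454 and 518, a difference of −0.26. Another probe of Trim12a differed by 0.06. Trim12c read 421 and 386, and its 2 probes gave 0.06 and 0.05.

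Trim34a was measured by 4 probes, all above background on both arrays. The chosen probe read 1092 and 1281, a difference of −0.30, and the furthest of the others 471 and 422, a difference of 0.09. Trim34b read 1036 and 1067, a difference of −0.11. Trim30a, known in mice to restrain Toll-like receptor signalling by degrading TAB2 and TAB3, read 2332 and 2459, a difference of −0.14. Trim30d read 2221 and 2387, a difference of −0.17, and its other probe 1048 and 887, a difference of 0.17. The cluster thus gave no direction shared by all its genes, and the probes of Trim5, Trim12a, Trim34a and Trim30d did not share a sign. Because Trim12a and Trim12c, Trim34a and Trim34b, and Trim30a and Trim30d are near copies, a probe may catch RNA of more than 1 of them; probe sequences were not used here.

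**Figure D2:**
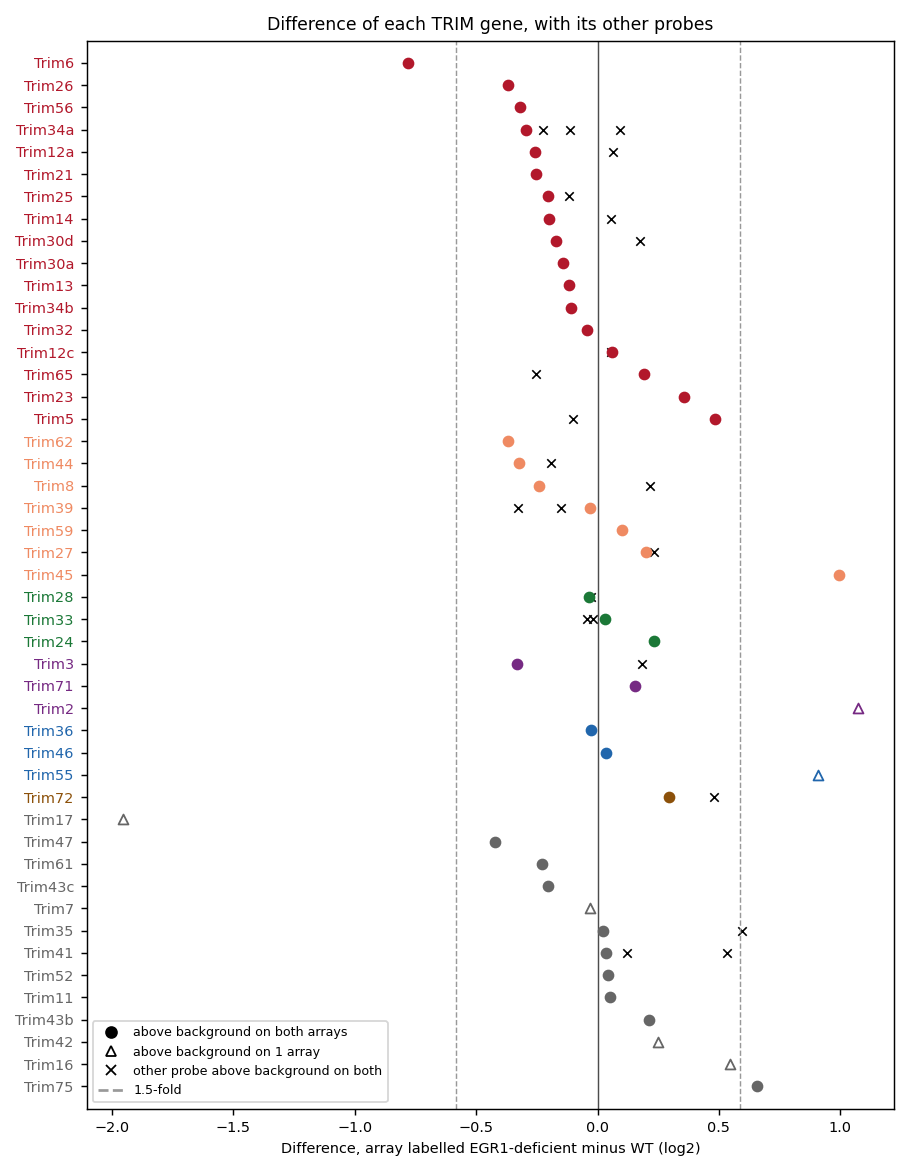
Difference of each of the 47 TRIM genes (x axis, log2, deficient-labelled array minus WT), grouped by gene list, with filled circles for genes above background on both arrays, open triangles for genes above background on 1 array, crosses for other probes of the gene above background on both arrays and dashed lines at 1.5-fold. Trim6 is the only gene of the interferon-linked list beyond a dashed line, and crosses fall across 0 from the circle for Trim34a, Trim12a, Trim14, Trim30d, Trim5, Trim65, Trim8, Trim3 and Trim33.

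Readings for genes that work with the antiviral members were of similar size. Interferon-stimulated genes outside the family had a median difference of −0.27, with 21 of 22 measured genes below 0. Over all genes passing on both arrays 57.4% were below 0, and 62.2% to 69.4% in the bands of signal from 200 upwards. Rtp4 read 6896 and 8887 (−0.43), and Ifi44 differed by −0.40, Cmpk2 by −0.38 and the RNA sensor gene Ifih1 by −0.37. Isg15, which encodes a ubiquitin-like protein, was the exception, at 4793 and 3951 (0.21). The list of nucleic acid sensing partners of the TRIM proteins shares Irf7, Ifih1 and Dhx58 with the interferon-stimulated list, so the counts overlap. The sensing partners had a median of −0.20, with 13 of 17 below 0. Among these the kinase gene Tbk1 read 90.1 and 148 (−0.78), whereas Irf3 differed by −0.32 with another probe at 0.02, and Ddx58, which encodes RIG-I, by −0.30 with another probe at −0.09. Trim25 and the gene of its target RIG-I both lay on the lower side, as did 69.4% of all genes above a signal of 1000. Trim65 (0.19, other probe −0.25) and Ifih1 (−0.37), the gene of its target MDA5, lay on opposite sides in the probes used.

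Markers of other cells were read as well, and they did not share 1 direction. The 9 macrophage markers were all above background on both arrays, 8 of them below 0, with a median of −0.39 and a summed signal of 24042 on the deficient-labelled array and 29185 on the WT array. C1qc differed by −0.64 and C1qb by −0.58. The part of the share of macrophages in the values of the antiviral TRIM genes was not tested. The 7 neutrophil markers had a median of −0.10 with 4 below 0. Their summed processed signal, also unscaled, was higher on the deficient-labelled array (57808.5) than on the WT array (51616.7). Most of that gap came from 1 bright gene, S100a9, at 38540 and 32811. The 3 measured erythroid markers had a median of −0.12 with 2 below 0, and Epor differed by 0.52. The B cell markers split, with Ebf1 at −1.15, Cd79b at −1.09 and Cd79a at −0.58 against Pax5 at 0.47 and Ms4a1 at 0.45, a median of −0.58 over these 5. Among T cell markers Cd4 differed by 0.63 and Cd3e by 0.18. Cd3g passed on the deficient-labelled array only, at least 2.29-fold higher there, Cd3d on the WT array only, at least 1.73-fold lower on the other, and Cd8a on neither. Of the 5 stromal markers, Col1a2, Pdgfrb and Cxcl12 passed on both arrays and differed by 1.05, 0.99 and 0.98. Col1a1 and Dcn passed on the deficient-labelled array only and were at least 1.31-fold and 1.83-fold higher there.

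The difference also varied with signal, and many of the antiviral TRIM genes are bright. Over all genes passing on both arrays, the median was 0.01 below a mean signal of 50, −0.01 from 50 to 200, −0.07 from 200 to 1000 and −0.10 above 1000. The corresponding TRIM medians were 0.13 over 6 genes, 0.04 over 16, −0.20 over 11 and −0.19 over 8. In the upper pair of bands 8 of 11 and 7 of 8 TRIM genes were below 0, where 62.2% and 69.4% of all genes were. After loess normalization, fitted against signal over all non-control spots, the median of the interferon-linked list was −0.07 and that of all genes −0.01. In that setting 13 of 17 list members lay below the median of all genes. The part of the signal trend in the values of the list was not tested.

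**Figure D3:**
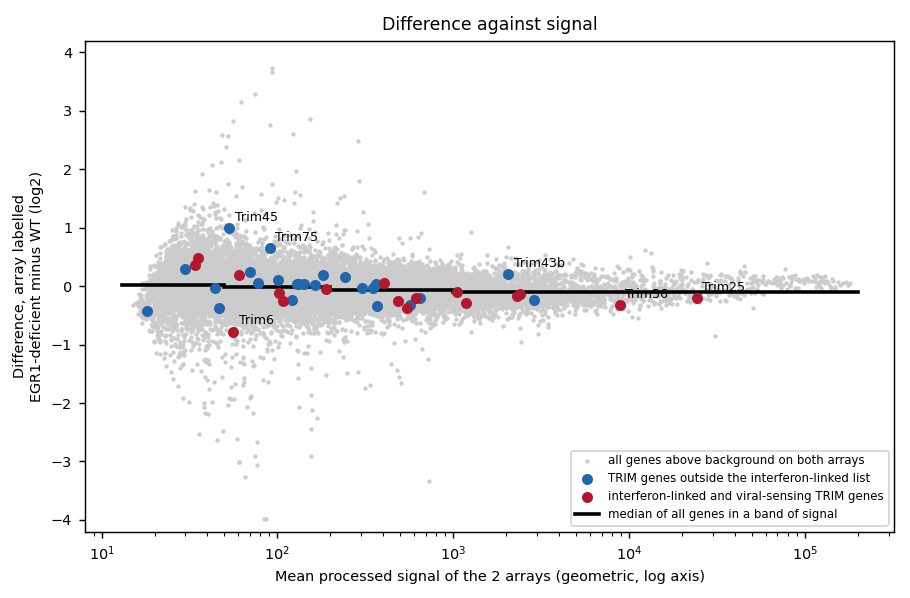
Difference (y axis, log2, deficient-labelled array minus WT) against the geometric mean processed signal of the arrays (x axis, log axis) for all genes above background on both arrays (grey), the interferon-linked and viral-sensing TRIM genes (red) and the other TRIM genes (blue), with black bars for the median of all genes in 4 bands of signal. The grey cloud narrows and its median sinks from 0.01 to −0.10 as signal grows, and the TRIM genes lie within the cloud, with Trim6, Trim45 and Trim75 towards its edges.

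Probes of 1 gene often did not share a sign. Of 18 TRIM genes with at least 2 probes above background on both arrays, 9 had a probe of the opposite sign to the brightest, which is 50%, and over all 4594 such genes the share was 50.04%. In 13 of the 18 TRIM genes (72.2%) the brightest probe gave the lowest difference, against 49.4% of all genes. The genes with a probe of the opposite sign were Trim3, Trim5, Trim8, Trim12a, Trim14, Trim30d, Trim33, Trim34a and Trim65.

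TRIM genes of the NF-kB and Toll-like receptor pathways went both ways, with a median of −0.12 and 6 of 9 measured genes below 0. Trim45, which dampens NF-kB signalling downstream of TNF, read 77.1 and 36.9. This was the widest gap on the higher side among the TRIM genes above background on both arrays, at 1.99-fold. Its other probe was not above background on either array, so the gap stands on 1 probe. Trim8, a positive regulator of TNF-induced NF-kB activity, read 2705 and 3051 (−0.24), but another probe read 817 and 672 (0.22).

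Trim62 read 42.0 and 51.8 (−0.37), and Trim44, a member without a RING domain, 522 and 624 (−0.32, another probe −0.19). Both probes of Trim44 were on the lower side. Trim39 differed by −0.03, with another probe at −0.33. Trim27 read 198 and 165 (0.20), and its other probe gave 0.23. The probes of Trim27 thus stood on the same side, by less than the root mean square spread between probes. Trim59, a membrane-anchored member like Trim13, differed by 0.10, and the median of that pair was −0.01.

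The 3 measured chromatin-binding members were near level, with a median of 0.03. Trim28, also called KAP1, is the corepressor that KRAB zinc-finger proteins bring to endogenous retroviruses, and read 306 and 299, a difference of −0.04, with −0.03 from its other probe. Trim33, a regulator of Smad4, read 147 and 138 (0.03, furthest other probe −0.04). Trim24, a co-regulator of nuclear receptors, read 78.0 and 63.3 (0.23), and its other probe was not above background on either array. Trim66, a testis-enriched member, was not above background. The 11 corepressor partners of Trim28 had a median of −0.08, with 6 below 0. Among them Atf7ip differed by 0.51 (another probe 0.17), Morc3 by −0.37 (another probe −0.04), the methyltransferase gene Setdb1 by 0.29 and the deacetylase gene Hdac1 by −0.20 (another probe 0.18).

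The 4 measured members of the NHL-repeat group, Trim32 among them, were mixed, with a median of −0.05 over the 3 passing on both arrays. Trim3 read 336 and 404 (−0.33), with another probe at 0.18. Trim71, a regulator of mRNA in early embryos, read 261 and 224 (0.16). Trim2, best known from neurons, was above background on the deficient-labelled array only, at 25.4 against 11.54, and was at least 1.49-fold higher there. Such an at-least fold sets the bright reading against the higher of the dim reading and the lowest signal called well above background on that array, which was 13.3 on the deficient-labelled array and 16.3 on the WT array. The reading of Trim2 was dim on both arrays.

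In the COS-box group 3 of 7 genes passed the background call, and in the muscle group 2 of 4. Of 7 COS-box genes, whose products bind microtubules, Trim36 (44.6 and 43.4, −0.03) and Trim46 (138 and 129, 0.03) were above background on both arrays. Trim55, a muscle ligase also called MuRF2, read 24.2 and 12.3 and was at least 1.41-fold higher on the deficient-labelled array. The muscle ligases Trim54 and Trim63, and the neuronal Trim9 and Trim67, were not above background. Trim72, which helps reseal muscle membranes, read 33.9 and 26.4 (0.29, another probe 0.48). Of 7 skeletal muscle markers, Ckm and Myh1 were not above background, and the median of the 5 measured was 0.17. Acta1, at 19.5 and 74.4 (−1.99), was the only 1 of the 5 below 0. Tnnt3 differed by 0.37, Myog by 0.29 and Myod1 by 0.17.

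The members on no list held the gene with the widest gap. Trim17, a ligase studied in neuronal apoptosis, read 11.2 on the deficient-labelled array, not well above background, and 41.3 on the WT array. It was at least 3.24-fold lower on the deficient-labelled array, on its only probe. Trim75 read 116 and 70.3, a difference of 0.65 or 1.57-fold, also on 1 probe. Trim47, whose start window carries the EGR letters printed above, read 15.9 and 20.4 (−0.42), both close to the background limit. Trim13, the other gene with those letters, differed by −0.12 on its only probe. Trim16, which lacks a classical RING domain, was at least 1.32-fold higher on the deficient-labelled array, but its other probe was above background on the WT array only, at 12.4 and 26.4. Its probes thus pointed opposite ways. Trim42 was at least 1.19-fold higher there, and Trim7, at 17.5 and 17.0, had no bound above 1.

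The remaining genes were close in the probe used, though not always in others. Trim35 differed by 0.02 and Trim41 by 0.03, but the furthest other probes gave 0.60 and 0.53. Trim11 (0.05), Trim52 (0.04), Trim61 (−0.23), Trim43b (2264 and 1866, 0.21) and Trim43c (615 and 677, −0.21) complete the set. The other probe of Trim52 was not above background on either array. The Trim43 genes are known from preimplantation embryos. Trim43c had a further probe that was not above background (2.86 and 4.57), so its probes did not bear each other out, and Trim43a had no probe.

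The 19 members with a probe but no reading well above background on either array were Trim9, Trim10, Trim15, Trim29, Trim30b, Trim31, Trim37, Trim38, Trim40, Trim50, Trim54, Trim58, Trim60, Trim63, Trim66, Trim67, Trim68, Trim69 and Trim80. At the limit, Trim47 (15.9 and 20.4) and Trim7 (17.5 and 17.0) were just inside, and Trim68 (11.9 and 15.4) and Trim69 (13.9 and 6.26) just outside. No fold is given for a gene below background on both arrays. Of the 47 measured genes, 20 had only 1 probe on the array, and 18 had at least 2 probes above background on both arrays. The rest, such as Trim45, had a further probe but no 2 probes above background on both arrays.

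Family members known by other names were read alongside. Pml, the organiser of nuclear bodies, read 803 and 837 (−0.13), and Mefv, which encodes the inflammasome sensor pyrin, 655 and 631 (−0.01, another probe −0.51). Mid1, a microtubule-binding ligase, read 389 and 322 (0.20), with another probe at 1.254, and its relative Mid2 33.3 and 21.9 (0.54). Cmya5 and Rnf207 were not above background. The 4 measured genes had a median of 0.10. The probes of Mid1 shared a sign but not a size.

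Genes of ubiquitin conjugation, the step that supplies TRIM ligases, had a median near that of all bright genes, with a larger share below 0. The 21 measured genes had a median of −0.10, with 16 (76.2%) below 0. The median of all genes above a signal of 1000 was −0.10 with 69.4% below 0. Many of the 21 were dimmer, and from 200 to 1000 it was −0.07 with 62.2% below 0. The share of 76.2% was close to the 76.5% of the interferon-linked list. The conjugating enzyme gene Ube2e2 read 135 and 84.9 (0.60), and Ube2d1 276 and 187 (0.50, another probe −0.24). Ube2d3 differed by −0.36 and Ube2e1 by −0.34, with another probe of Ube2e1 at −0.39.

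The family median followed that of all genes under every setting tried, while the interferon-linked list stayed below it. Across the normalizations and filters, the TRIM median ran from −0.11 without a filter on dim probes to 0.08 in the authors' series table, and the median of all genes from −0.11 to 0.06 in the same settings. The median of the interferon-linked list ran from −0.20 with the stricter filter to −0.06 in the authors' series table. Its members below the median of all genes were 14 of 20 without a filter and 12 of 15 with the stricter filter. In every other setting they were 12 or 13 of 17. Of the 47 genes, 17 were below 0 and 17 above 0 in every setting that gave a value, and 13 changed sign.

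**Figure D4:**
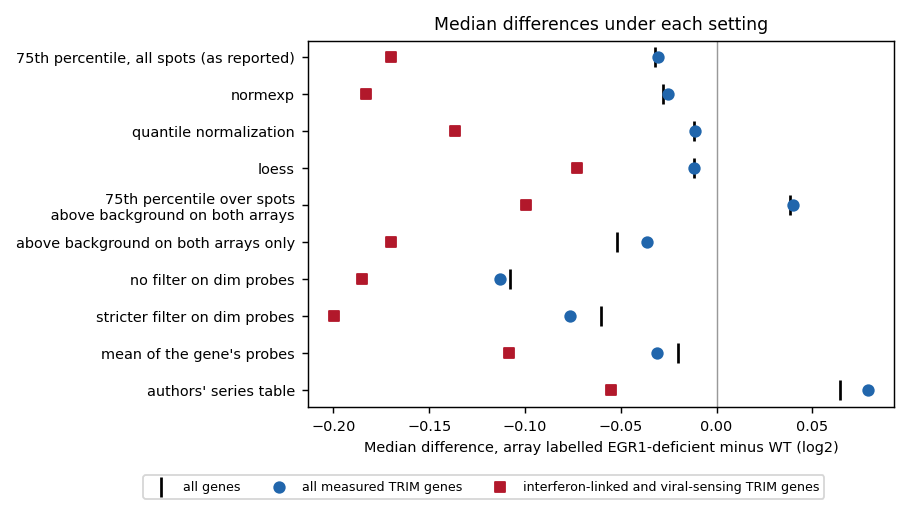
Median difference (x axis, log2, deficient-labelled array minus WT) of all genes (black ticks), all measured TRIM genes (blue circles) and the interferon-linked and viral-sensing TRIM genes (red squares) under the reported setting and 9 alternatives. The blue circles stay within 0.02 of the black ticks, and the red squares lie to the left of them, nearest after loess.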

How the data were processed

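RNA of 1 culture per genotype label was measured on 1 array each; the headers give both the same scan time, and whether they shared a slide was not settled. Spot intensities on a linear scale were used as the authors deposited them, made with Agilent Feature Extraction 12.1.0.3 per the file headers; the submitters' processing notes name 11.5.1.1. The authors' series table is that processed intensity times 6.18 and 5.97, of unstated origin, with column medians 1205 and 1114, direction as labelled and no centring.

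Outlier spots (77 and 79) were left out. Log2 intensity minus the 75th percentile (191.6 and 183.0) was compared; a gene took its probe of highest mean signal. Probes were named by accession through RefSeq (GRCm38.p6), 34566 of 56605 probes; the files name build mm9, so array coordinates were not used. Normexp, planned on mean spot signals, used median ones, the column at hand, with an offset of 50. Python 3.11.15, R 4.3.3 and limma 3.58.1 were used. Counting was tested on simulated data. Members and lists were chosen with earlier results of these data known. All measured TRIM genes are named, and of other lists up to 4 genes with the largest difference.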

Additional observations from a re-analysis of the deposited data

How the results depend on the processing

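Single arrays limit every value, and dim genes rest on 1 reading near background. No paired analysis was possible because each group has 1 array. The main counts of TRIM genes 1.5-fold or more higher and lower were 2 and 2 of 47, and at 2-fold 0 and 1. Over all 15407 genes they were 845 and 899, and at 2-fold 289 and 336. Without a filter on dim probes the TRIM counts were 5 and 6 of 66, and 2 and 5, the additions being genes below background on both arrays. In that setting 2016 of all 23786 genes were 1.5-fold or more higher and 1894 lower. After normexp, whose offset shrinks dim differences, 0 TRIM genes were 1.5-fold higher, 0 lower and 0 were 2-fold lower. Of all 15407 genes, 160 were then 1.5-fold higher and 219 lower. With genes above background on both arrays only, with the stricter filter and with the authors' series table, 1 gene, Trim6, was 1.5-fold lower and 0 were 2-fold lower, since Trim17 could not enter. Over all genes, 573 of 13725, 354 of 11555 and 239 of 12772 were 1.5-fold lower in these settings. With the 75th percentile over spots above background on both arrays, and with the authors' series table, 1 gene, Trim45, was 2-fold higher. The genes 1.5-fold higher gained Trim2 in the former setting and Trim5 (0.60) in the latter. After loess the genes 1.5-fold lower gained Trim47 (−0.59). The median of the interferon-linked list, −0.17 as reported, was −0.07 after loess and −0.06 in the authors' series table, where the median of all genes was −0.01 and 0.06. None of the 4 genes 1.5-fold apart changed sign.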
